A study of Homo sapiens with 6 samples.

Results

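The genes for the inhibitors of cyclin-dependent kinases (CDKs), together with CDK4 and CDK6, were examined in PANC1 cells, a human pancreatic carcinoma line, treated with gemcitabine. The 10 genes were chosen by name: CDKN1A, CDKN1B and CDKN1C of the CIP/KIP family, CDKN2A, CDKN2B, CDKN2C and CDKN2D of the INK4 family, CDKN3, CDK4 and CDK6. All 10 of them were found among the 20461 genes of the deposited table, and all 10 were among the 14854 whose fragments, summed over the libraries, reached 10. RNA-seq was done on 2 libraries of cells given vehicle (0.1% DMSO) and 2 libraries of cells given 50 nM gemcitabine, both for 48 h, and DNaseI-seq was done on 1 library with vehicle and 1 library with 50 nM gemcitabine. All samples came from the same line, and the labels name no other agent or genetic change. The RNA libraries are described as biological replicates, but nothing states whether they came from separate cultures, so p-values measure only the spread between these libraries.

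CDK inhibitors are small proteins that bind CDKs and hold back the cell cycle. Those of the INK4 family bind CDK4 and CDK6 themselves and keep D-type cyclins from joining them, while those of the CIP/KIP family bind complexes of cyclins and CDKs, most strongly those of CDK2. CDK4 and CDK6 with a D-type cyclin phosphorylate the retinoblastoma protein RB1, which then releases E2F transcription factors and lets cells enter S phase. Gemcitabine is a deoxycytidine analog that is built into DNA, stalls replication forks and depletes deoxynucleotides through ribonucleotide reductase. In pancreatic carcinoma CDKN2A is among the genes most often lost, and PANC1 is generally listed with a deletion of CDKN2A.

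The 4 RNA libraries held between 13194533 and 15766237 assigned fragments, at which 3 fragments stand for 0.190 to 0.227 CPM (fragments relative to the library total). Among markers of the line's origin, KRT7 had 14030 to 17660 fragments per library, and KRT8, KRT18 and VIM were also abundant, whereas KRT19 had only 45 in each vehicle library against 94 and 88 with gemcitabine. Of the 4 keratins, 3 were higher with gemcitabine and KRT7 was lower at an adjusted p under 0.05, and their summed level was 2361 and 2517 FPKM with vehicle against 2545 and 2618 FPKM with gemcitabine. The part of this difference in the results below was not tested. Markers of leukocytes, endothelial, acinar, endocrine and liver cells reached at most 9 fragments in any library. Of 4 markers of fibroblasts and stellate cells, COL1A1 had 56723 to 62658 fragments per library, COL1A2 at most 3, PDGFRA at most 1 and DCN 24 to 39. Only COL1A1 and DCN among these had enough fragments to be tested, and neither passed in edgeR, DESeq2 or limma, nor at an unadjusted p under 0.05.

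The data went against the usual description of PANC1 at CDKN2A. The gene had 6219 and 6052 fragments with vehicle and 5497 and 5106 with gemcitabine, which made it the highest of the 10 genes by FPKM (fragments scaled to transcript length and to the library's depth). Its neighbour MTAP, a methionine salvage enzyme that is often lost together with CDKN2A, had 1521 to 3037 fragments per library, and CDKN2B on the other side had 427 to 968. An open chromatin peak lay at a CDKN2A start in both DNaseI-seq libraries. The cause was not tested, and the libraries are called PANC1 here as they were labelled.

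For 4 genes the results turn on, the 250 bases before the annotated start are shown, since these hold the sites at which transcription of each gene is set up. They are given 5′ to 3′ on the strand of the gene, from RefSeq on GRCh38.p14, and their places on hg19, the build of the deposited files, come from an exact match found at 1 place. Capitals mark matches to the 5 motifs searched, each on both strands. The first motif was GGGCGG, the GC box that factors of the SP1 family bind. For the NF-Y box, read by the trimeric factor of that name, the letters CCAAT were used. For the TATA box, where the general transcription machinery can settle, TATAAA was searched. The cell cycle genes homology region (CHR), found in many promoters that are active late in the cycle, was searched as TTTGAA. The core of an E2F site, the element through which RB1 acts, was searched as GCGGGAA. In the CDKN1A promoter the last 2 GC boxes share a base. The first is the promoter of CDKN1A (hg19 chr6:36646241-36646490, plus strand), the second that of CDKN2B (chr9:22009305-22009554, minus strand), the next that of the CDKN2A transcript for p16INK4a (chr9:21974857-21975106, minus strand) and the last that of CDKN3 (chr14:54863475-54863724, plus strand).
CDKN1A: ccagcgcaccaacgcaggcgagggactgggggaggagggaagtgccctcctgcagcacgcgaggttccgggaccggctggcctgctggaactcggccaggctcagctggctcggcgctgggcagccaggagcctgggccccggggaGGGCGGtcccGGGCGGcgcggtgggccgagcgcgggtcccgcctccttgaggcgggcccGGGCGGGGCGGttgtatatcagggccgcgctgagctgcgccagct
CDKN2B: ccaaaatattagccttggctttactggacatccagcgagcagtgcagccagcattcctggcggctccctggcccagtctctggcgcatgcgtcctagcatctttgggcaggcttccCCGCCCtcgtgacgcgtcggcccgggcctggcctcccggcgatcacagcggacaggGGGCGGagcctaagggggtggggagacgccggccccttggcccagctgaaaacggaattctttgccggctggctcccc
CDKN2A: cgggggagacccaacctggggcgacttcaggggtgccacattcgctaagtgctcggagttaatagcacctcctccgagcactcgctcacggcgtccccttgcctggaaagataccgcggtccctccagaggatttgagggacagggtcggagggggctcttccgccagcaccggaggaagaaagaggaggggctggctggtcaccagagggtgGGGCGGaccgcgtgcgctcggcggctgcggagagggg
CDKN3: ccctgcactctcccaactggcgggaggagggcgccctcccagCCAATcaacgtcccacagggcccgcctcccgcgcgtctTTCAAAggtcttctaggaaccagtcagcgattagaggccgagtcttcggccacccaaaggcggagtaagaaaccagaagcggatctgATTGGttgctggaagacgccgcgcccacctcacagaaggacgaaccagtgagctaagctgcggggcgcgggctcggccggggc

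The CDKN1A promoter held 4 GC boxes and none of the other motifs, and 76.4% of its bases were G or C, against a median of 58.0% over 35116 RefSeq promoters of the same length. CDKN2B held 2 GC boxes and the p16INK4a promoter of CDKN2A 1. The CDKN3 promoter held 2 NF-Y boxes, 1 CHR and no GC box. Over all promoters, 42.6% held a GC box, 32.0% an NF-Y box, 13.3% a CHR, 10.7% a TATA box and 5.52% an E2F core. Of the promoters not shown, CDK4 held 3 GC boxes, CDKN2D 2 GC boxes and 1 NF-Y box, and CDKN1B 1 GC box and 2 NF-Y boxes. At one of its 3 starts CDKN2C held 5 GC boxes and 2 E2F cores, and one of 2 CDK6 promoters held 3 GC boxes. The other CDK6 promoter, the other CDKN2A promoter and a further one of CDKN2C held none of the motifs searched. These matches describe letters in the window and were not tested as sites.

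The question behind the RNA comparison was which genes gemcitabine changes. A gene passed when its adjusted p was under 0.05 in the quasi-likelihood test of edgeR, adjusted by the Benjamini-Hochberg method over all 14854 genes. It was called when, besides, its fold change was over 1.5, its mean was at least 0.1 FPKM in a condition and its means differed by at least 1 FPKM. The CDK inhibitor genes CDKN1A, CDKN2B and CDKN2D were called higher with gemcitabine, CDKN1C passed higher by less than 1.5-fold, and CDKN3, CDK4 and CDK6 passed lower by less than 1.5-fold. CDKN1B, CDKN2A and CDKN2C did not pass. Thus 4 of 10 genes passed higher and 3 lower, where 18.5% and 20.0% of all tested genes did so, and 3 of 10 were called higher and 0 lower, where 5.69% and 4.43% were (10.1% in either direction). At an unadjusted p under 0.05 edgeR put 4 of the 10 lower, DESeq2 passed 3 of them lower and limma 0, and none of these reached 1.5-fold. Over all genes 845 were called higher and 658 lower, a split that became 1164 and 417 with library totals in place of TMM scaling and 847 and 311 with limma on log2(FPKM + 1). The median log2 fold change was -0.02 for the 10 genes and 0.01 for all tested genes, and the latter became 0.12 with library totals. In bulk RNA, fewer cells that express a gene and less of its RNA per cell cannot be told apart.

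**Figure D1:**
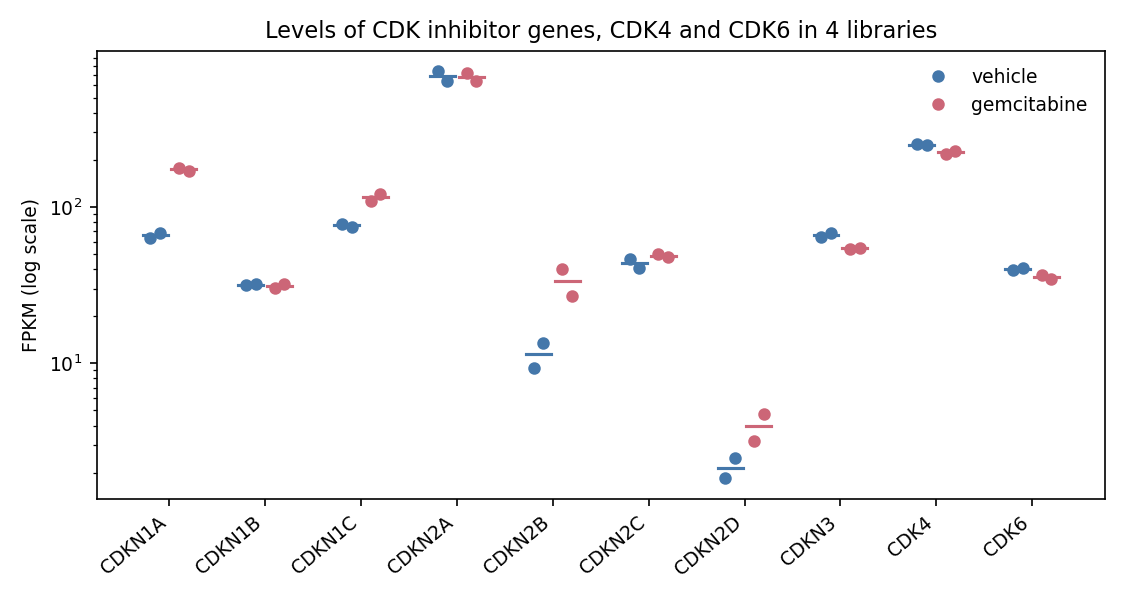
FPKM of the 10 genes on a log axis in each of 2 vehicle and 2 gemcitabine libraries (points), with the mean of each condition as a line. CDKN1A, CDKN1C, CDKN2B, CDKN2D and, by less, CDKN2C lie higher with gemcitabine, and CDKN2A is the highest in every library at 634 to 739 FPKM.

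By level, the order with vehicle was CDKN2A (mean 686 FPKM), CDK4 (251 FPKM), CDKN1C (76.4 FPKM), CDKN3 (66.2 FPKM), CDKN1A (65.8 FPKM), CDKN2C (43.7 FPKM), CDK6 (40.1 FPKM), CDKN1B (31.7 FPKM), CDKN2B (11.4 FPKM) and CDKN2D (2.16 FPKM). The ranges of CDKN3 and CDKN1A overlapped, as did those of CDKN2C and CDK6, while all other neighbours lay apart over their 2 libraries. With gemcitabine CDKN1A came next after CDKN2A and CDK4, and CDK6, CDKN2B and CDKN1B overlapped one another in turn. Among the genes of the table, CDKN2A stood at the 99.3rd percentile of mean vehicle FPKM and CDK4 at the 97.6th, while CDKN2D stood at the 46.5th. CDKN1A moved from the 88.8th percentile with vehicle to the 96.1st with gemcitabine, and CDKN2B from the 63.2nd to the 79.0th. These levels are per transcript length and carry no test.

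CDKN1A (ENSG00000124762, hg19 chr6:36644237-36655114) encodes p21, the CIP/KIP inhibitor that is induced after DNA damage. It had 1933 and 2056 fragments with vehicle and 4581 and 4458 with gemcitabine, or 63.6 and 67.9 FPKM against 177 and 170 FPKM. Both gemcitabine libraries stood far above both vehicle libraries, and the libraries of a condition lay close to each other. The log2 fold change of fragments was 1.29 ± 0.07 (SE, n = 2 per condition; edgeR adjusted p = 1.6e-08), a 2.45-fold rise that exceeded 95.5% of all tested genes. Without any one library it stayed between 1.29 and 1.31, and the gene remained called in all 14 alternatives tried.

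Of the other CIP/KIP genes, CDKN1C passed higher and CDKN1B did not pass. CDKN1C (ENSG00000129757, chr11:2904443-2907005), which encodes the imprinted inhibitor p57, had 1554 and 1629 fragments with vehicle and 1938 and 2196 with gemcitabine, or 77.9 and 74.8 FPKM against 109 and 121 FPKM. The conditions did not overlap, and the log2 fold change was 0.49 ± 0.08 (SE, n = 2 per condition; edgeR adjusted p = 1.5e-04), or 1.41-fold. It reached the 1.5-fold limit with library totals (log2 fold change 0.60), without gemcitabine library 1 (0.59) and with limma on log2(FPKM + 0.1) (0.59). CDKN1B (ENSG00000111276, chr12:12838432-12875303), which encodes p27, a CIP/KIP protein kept in check largely by its degradation, had 907 and 990 fragments with vehicle and 710 and 808 with gemcitabine. Its FPKM was 31.5 and 32.0 against 30.2 and 32.0, so the conditions overlapped in FPKM but not in fragments scaled to depth. Its log2 fold change was -0.21 ± 0.08 (SE, n = 2 per condition; edgeR adjusted p = 0.062). Without any one library the log2 fold change of CDKN1B stayed between -0.31 and -0.10. Its adjusted p was 0.040 in edgeR with the table's library index as a block, 0.20 in DESeq2 and 0.85 in limma on log2(FPKM + 1).

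**Figure D2:**
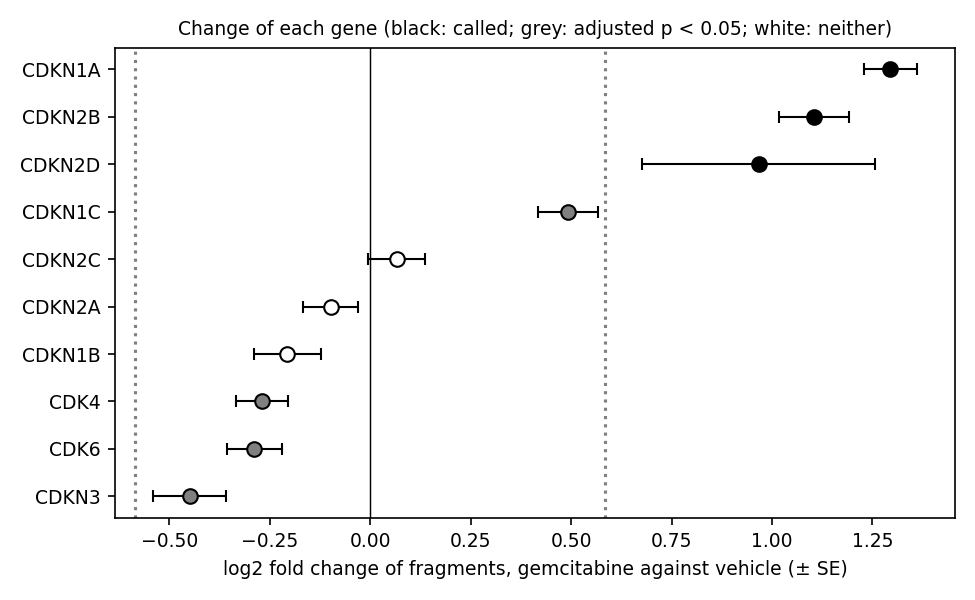
Log2 fold change of fragments with gemcitabine against vehicle for each gene (point, with its SE as a bar), from edgeR over 2 libraries per condition. Dotted lines mark 1.5-fold in either direction. CDKN1A, CDKN2B and CDKN2D lie beyond the upper line, and no gene lies beyond the lower one.

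Of the INK4 genes, CDKN2B and CDKN2D were called higher and CDKN2A and CDKN2C did not pass. CDKN2B (ENSG00000147883, chr9:22002902-22009304) encodes p15INK4b, an inhibitor that TGF-beta induces through SMAD proteins. It had 427 and 490 fragments with vehicle and 968 and 854 with gemcitabine, and its levels were 9.34 and 13.5 FPKM against 40.4 and 26.7 FPKM. Both treated libraries stood above both vehicle libraries on either scale, although the FPKM of like libraries lay further apart than their fragments. The log2 fold change of fragments was 1.10 ± 0.09 (SE, n = 2 per condition; edgeR adjusted p = 3.9e-07), or 2.15-fold, where the mean FPKM rose 2.93-fold. FPKM here sums over isoforms of unequal length, so the shares given to each isoform enter it. The kit's strand and the counting setting are not given in the sources used here, so reads of CDKN2B and those of its antisense RNA cannot be told apart. A readthrough gene from MTAP (ENSG00000264545) also spans CDKN2A and CDKN2B and had 309 to 536 fragments per library. It was lower with gemcitabine, with a log2 fold change of -0.54 ± 0.10 (SE, n = 2 per condition; edgeR adjusted p = 6.3e-04).

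CDKN2D (ENSG00000129355, chr19:10677136-10679735), which encodes p19INK4d, was the lowest of the 10 genes. It had 28 and 39 fragments with vehicle and 47 and 74 with gemcitabine, or 1.84 and 2.47 FPKM against 3.20 and 4.75 FPKM. The conditions did not overlap, but the counts were small and the gemcitabine libraries stood well apart from each other. The log2 fold change was 0.97 ± 0.29 (SE, n = 2 per condition; edgeR adjusted p = 0.016). The call was lost in DESeq2 (adjusted p = 0.080), without vehicle library 1 (0.19), without vehicle library 2 (0.080) and without gemcitabine library 2 (0.13), with log2 fold changes of 0.59 to 1.27 over the libraries left out. It was also lost in limma on FPKM (adjusted p = 0.11).

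CDKN2A (ENSG00000147889, chr9:21967751-21995300) encodes p16INK4a and, from another first exon, p14ARF, which binds MDM2, and the deposited value sums both. Its fragments are given above, and its levels were 739 and 634 FPKM with vehicle and 714 and 640 FPKM with gemcitabine. The conditions overlapped in FPKM, and the log2 fold change of fragments was -0.10 ± 0.07 (SE, n = 2 per condition; edgeR adjusted p = 0.28). The sign turned positive (0.013) with library totals, and without any one library the log2 fold change stayed between -0.14 and -0.04. CDKN2C (ENSG00000123080, chr1:51426417-51440306), which encodes p18INK4c, had 1304 and 1246 fragments with vehicle and 1260 and 1208 with gemcitabine. Its levels were 46.7 and 40.7 FPKM against 49.9 and 47.7 FPKM, which did not overlap. It was the only one of the 10 genes whose conditions overlapped in fragments scaled to depth, with a log2 fold change of 0.07 ± 0.07 (SE, n = 2 per condition; edgeR adjusted p = 0.50). For the other 9 of 10 the conditions did not overlap, as for 69.7% of all tested genes.

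CDKN3 (ENSG00000100526, chr14:54863567-54886936) encodes a phosphatase that acts on CDKs and is expressed mostly in dividing cells. It had 496 and 539 fragments with vehicle and 364 and 336 with gemcitabine, or 64.1 and 68.4 FPKM against 54.0 and 54.6 FPKM. Both treated libraries were lower, and the log2 fold change was -0.45 ± 0.09 (SE, n = 2 per condition; edgeR adjusted p = 0.0012), the lowest of the 10. The adjusted p was 0.055 without vehicle library 2 and 0.085 in limma on log2(FPKM + 1).

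The kinases themselves were both slightly lower. CDK4 (ENSG00000135446, chr12:58141510-58149796) had 2958 and 3132 fragments with vehicle and 2314 and 2351 with gemcitabine, with levels of 253 and 248 FPKM against 219 and 229 FPKM. CDK6 (ENSG00000105810, chr7:92234235-92465887) had 7030 and 7974 fragments against 5881 and 5464, with levels of 39.6 and 40.7 FPKM against 36.6 and 34.7 FPKM. Neither gene overlapped between conditions. The log2 fold changes were -0.27 ± 0.06 for CDK4 and -0.29 ± 0.07 for CDK6 (SE, n = 2 per condition; edgeR adjusted p = 0.0043 and 0.0042). With a vehicle library left out neither passed. Without vehicle library 1 the adjusted p was 0.081 for CDK4 and 0.054 for CDK6, without vehicle library 2 it was 0.097 and 0.17, and in limma on log2(FPKM + 1) 0.19 and 0.26. CDK4 exceeded CDK6 in FPKM by 6.39 and 6.09 times with vehicle and by 6.0 and 6.6 times with gemcitabine, so the ratios of the conditions overlapped.

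The summed level of the 3 CIP/KIP genes was 173 and 175 FPKM with vehicle and 317 and 323 FPKM with gemcitabine. Of that sum CDKN1A made up 36.8% and 38.9% with vehicle and 56.1% and 52.6% with gemcitabine. CDKN1B fell from 18.2% and 18.3% to 9.53% and 9.90% of the sum, and CDKN1C from 45.1% and 42.8% to 34.4% and 37.5%, although the level of CDKN1C itself was higher. Thus CDKN1C led the family with vehicle and CDKN1A with gemcitabine. Set against the summed FPKM of CDK4 and CDK6, the CIP/KIP sum was 0.591 and 0.605 with vehicle and 1.24 and 1.22 with gemcitabine.

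The INK4 sum showed no such shift. It was 796 and 691 FPKM with vehicle and 808 and 719 FPKM with gemcitabine, since CDKN2A made up 92.7% and 91.8% with vehicle and 88.4% and 89.0% with gemcitabine. Without CDKN2A the sum was 57.8 and 56.7 FPKM against 93.5 and 79.2 FPKM, and CDKN2B supplied most of the difference. CDKN2A exceeded CDKN2B by 79.1 and 46.9 times with vehicle and by 17.7 and 23.9 times with gemcitabine. The INK4 sum was 2.72 and 2.40 times the summed FPKM of CDK4 and CDK6 with vehicle and 3.16 and 2.73 times with gemcitabine. It includes the p14ARF transcripts of CDKN2A, whose share was not measured. The part of the sum that encodes INK4 proteins is therefore not known. These sums and ratios carry no test, and RNA levels need not follow the proteins.

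**Figure D3:**
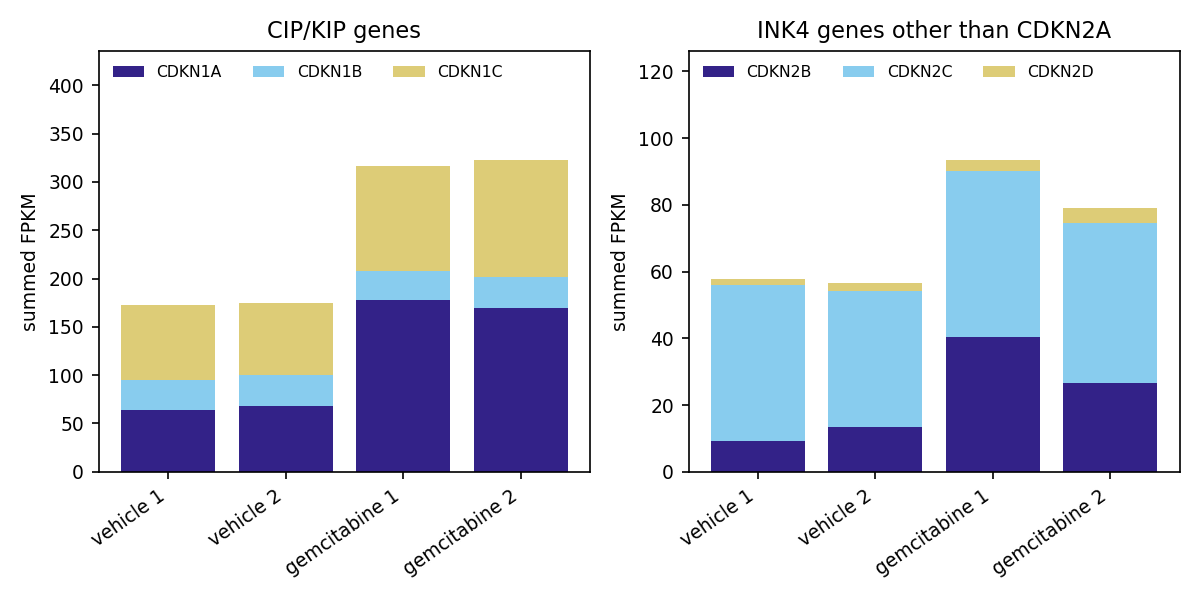
Summed FPKM of the 3 CIP/KIP genes (left) and of the 3 INK4 genes other than CDKN2A (right) in each library, stacked by gene. The CIP/KIP sum is 173 and 175 FPKM with vehicle and 317 and 323 FPKM with gemcitabine, with CDKN1A the largest part in both gemcitabine libraries.

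DNaseI-seq marks open chromatin, and with 1 library per condition its peaks carry no test. Peaks are given with the authors' score, which is the negative log10 of the peak caller's p-value times 10. Of the 10 genes, 5 had a peak within 1 kb of an annotated start with vehicle and 3 with gemcitabine, where 21.2% and 24.5% of 18838 protein-coding genes did so, and 38.3% and 43.1% of 7811 genes with a vehicle mean of at least 10 FPKM. With a score of at least 100 asked for, 0 genes kept a peak with vehicle and 1 with gemcitabine. CDKN1A, CDKN1B, CDKN1C, CDKN3 and CDK6 had no listed peak within 5 kb of a start in either condition. A gene with no listed peak may still be open below the threshold of the list.

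At CDKN2A, a peak lay over the p14ARF start in both conditions, at chr9:21994087-21995670 with vehicle (score 67.7) and chr9:21994097-21995719 with gemcitabine (score 66.5), with 1574 bases shared. A further peak at chr9:21974909-21976111 (score 57.1) was listed only with gemcitabine. It began 44 bases from the p16INK4a start and covered 198 of the 250 promoter bases printed above. At CDKN2B, a peak at chr9:22008735-22010004 (score 74.99) was listed only with vehicle and covered all 250 promoter bases, while the RNA was higher with gemcitabine. At CDKN2C, a peak at chr1:51425561-51426705 (score 59.6) was also listed only with vehicle. CDKN2D had a peak with vehicle at chr19:10679307-10680135 (score 70.1) and with gemcitabine at chr19:10679258-10680418 (score 125), with 829 bases shared. CDK4 had a peak with vehicle at chr12:58145742-58146800 (score 98.1) and with gemcitabine at chr12:58145811-58146821 (score 73.7), with 990 bases shared. Thus 3 of the 5 genes with a vehicle peak had an overlapping gemcitabine peak. The share of vehicle peaks with such an overlap was not computed over the whole list. Within 2 Mb of CDKN2A, 10 of 23 vehicle peaks overlapped a gemcitabine peak, but this window includes the peaks at CDKN2A and CDKN2B themselves. Whether peaks listed only with vehicle or only with gemcitabine are particular to these genes cannot be told from this and was not tested. The median score was 71.1 over 9606 vehicle peaks and 73.8 over 10695 gemcitabine peaks. The peaks at CDKN2A, CDKN2B, CDKN2C, CDKN2D and CDK4 stood between the 20.5th and the 88th percentile of their own lists.

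The neighbourhood of CDKN2A was read out to 2 Mb on each side, which held 27 genes of the table. MLLT3, FOCAD, HACD4, KLHL9 and MTAP on one side had at least 100 fragments in every library, as did CDKN2A, CDKN2B and the readthrough gene. FOCAD, for example, had 2059 and 2220 fragments with vehicle and 2017 and 2158 with gemcitabine. Of the genes in the window, 12 were listed at 0 in every library. The window held 16 interferon genes, 14 of them under 3 fragments in every library. Of the other 2, IFNA1 had 1 to 3 fragments and IFNE 12 to 27. Beyond CDKN2B, DMRTA1 had 13 to 21 fragments and ELAVL2 at most 1. MTAP fell from 2846 and 3037 fragments with vehicle to 1521 and 1717 with gemcitabine and was called lower, with a log2 fold change of -0.75 ± 0.07 (SE, n = 2 per condition; edgeR adjusted p = 3.4e-06). Its FPKM differed by less, with 63.8 and 65.9 against 49.6 and 57.9. DNaseI-seq listed 23 peaks in the window with vehicle and 19 with gemcitabine, of which 10 overlapped, or 5.71 and 4.72 peaks per Mb against 3.12 and 3.47 per Mb over the genome.

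**Figure D4:**
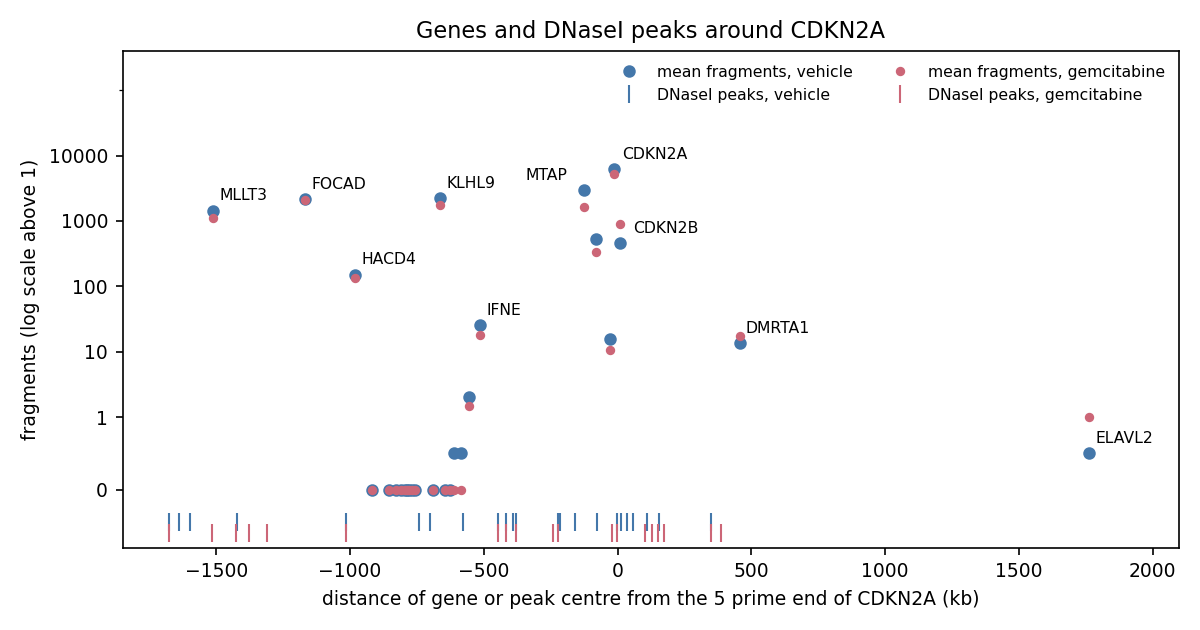
Mean fragments of each table gene within 2 Mb of CDKN2A (points, on a scale that is logarithmic above 1) and DNaseI peaks (ticks), by distance of the gene's or peak's centre from the 5′ end of CDKN2A in kb. CDKN2A, CDKN2B and MTAP are expressed, as are KLHL9, HACD4, FOCAD and MLLT3 farther out on the side of MTAP. The interferon genes other than IFNE (12 to 27 fragments) lie at or near 0. Beyond CDKN2B, DMRTA1 had 13 to 21 fragments and ELAVL2 at most 1.

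The partners through which the inhibitors act were read from 4 lists of genes. The counts of all 4 lists stand beside the shares over all tested genes, of which 18.5% passed higher and 20.0% lower. Of all tested genes 5.69% were called higher and 4.43% lower, and their median log2 fold change was 0.01. No list was tested as a whole. Of 12 genes for cyclins and CDKs of G1 and S phase and their activators, among them the phosphatase CDC25A and the assembly factor MNAT1, CCND2 was listed at 0 in all libraries, and of the 11 tested 4 passed higher and 4 lower, and their median log2 fold change was 0.13. CDK1, the mitotic kinase, was the only one called, with 2382 and 2523 fragments with vehicle and 3525 and 3689 with gemcitabine (log2 fold change 0.67 ± 0.07, SE, n = 2 per condition; edgeR adjusted p = 3.2e-06). The cyclins that bind CDK4, CDK6 and CDK2 are named after their values were seen. Of the D-type cyclins, CCND1 was lower (1819 and 1891 fragments against 1339 and 1333, log2 fold change -0.36) and CCND3 was higher (5617 and 5840 against 6873 and 6547, 0.34), and both passed. CCNE1 and CCNE2, the E-type cyclins of CDK2, passed lower with log2 fold changes of -0.42 and -0.50, and CDK2 itself passed higher with 0.31. CCNA2, the A-type cyclin of CDK2, had a log2 fold change of 0.13 that did not pass, and CDC25A passed lower with -0.30. The FPKM of CDC25A overlapped between conditions, however, at 19.4 and 18.2 with vehicle and 15.6 and 18.5 with gemcitabine.

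Of 13 genes for RB pocket proteins and E2F factors, 0 passed higher in edgeR, DESeq2 or limma, nor at an unadjusted p under 0.05. In edgeR 6 passed lower, and the median log2 fold change was -0.07. E2F1 fell from 1487 and 1392 fragments to 667 and 727 (log2 fold change -0.93 ± 0.08, SE, n = 2 per condition; edgeR adjusted p = 1.0e-06). E2F5 fell from 285 and 346 fragments to 168 and 133 (log2 fold change -0.95 ± 0.13, SE, n = 2 per condition; edgeR adjusted p = 6.4e-05). These were the only 2 called, and RB1 had a log2 fold change of 0.05 that did not pass.

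Of 13 genes listed for the degradation of CDK inhibitors, 0 passed higher and 4 lower in edgeR, and the median log2 fold change was -0.10. DESeq2 and limma also passed 0 higher, and at an unadjusted p under 0.05 edgeR put 1 higher. CUL4A, a scaffold of the ubiquitin ligase that degrades p21 in S phase, was called lower, with 7301 and 7804 fragments with vehicle and 4465 and 4632 with gemcitabine (log2 fold change -0.62 ± 0.07, SE, n = 2 per condition; edgeR adjusted p = 6.1e-06). SKP2, which recognises p27, passed lower with a log2 fold change of -0.29. Its FPKM differed by less, with 131.3 and 127.7 with vehicle against 120.1 and 127.5 with gemcitabine.

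Of 19 transcription factors and Polycomb proteins known to act at CDK inhibitor genes, 2 passed higher and 9 lower, and the median log2 fold change was -0.23. MYC, which represses CDKN1A and CDKN2B, fell from 10326 and 9836 fragments to 2775 and 3034 (log2 fold change -1.68 ± 0.08, SE, n = 2 per condition; edgeR adjusted p = 5.5e-09). TFAP4, a target of MYC that represses CDKN1A, fell from 548 and 625 fragments to 197 and 162 (log2 fold change -1.59 ± 0.11, SE, n = 2 per condition; edgeR adjusted p = 1.4e-07). KLF4, an activator of CDKN1A, also fell, from 1316 and 1443 fragments to 648 and 703 (log2 fold change -0.91 ± 0.08, SE, n = 2 per condition; edgeR adjusted p = 6.4e-07). Among other factors that act at CDKN2B, SMAD3 and ZBTB17 passed higher with log2 fold changes of 0.41 and 0.29. SMAD2 and SMAD4 passed lower with -0.42 and -0.25. The FPKM of SMAD4 overlapped between conditions, however, at 53.3 and 57.3 with vehicle and 55.8 and 57.5 with gemcitabine.

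**Figure D5:**
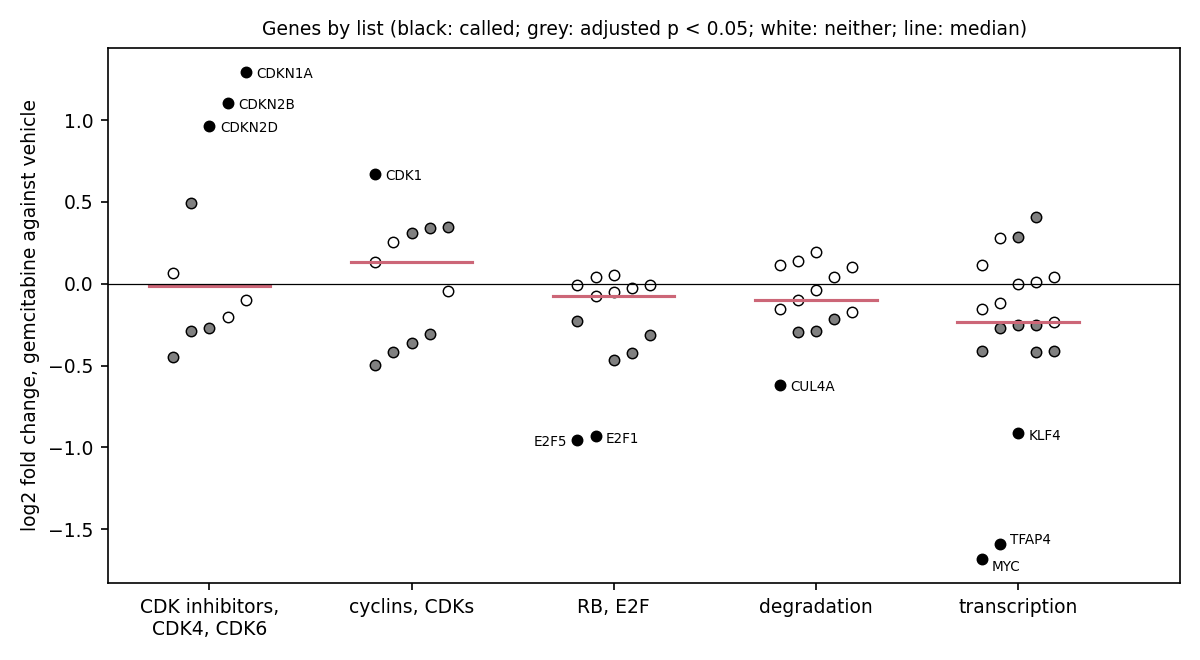
Log2 fold changes of the 10 genes and of 4 lists of related genes (points, shaded by test result, with called genes named), and the median of each list (line). The largest falls are those of MYC and TFAP4, and CDKN1A has the largest rise plotted, 1.29.

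The genes whose change was most like that of CDKN1A were sought among 10010 genes with at least 10 CPM on average, by the Euclidean distance between log2-scaled CPM of the 4 libraries after centring each gene. The nearest were C3 (distance 0.051), TUBA1A (0.052) and LBH (0.056). C3, a complement component, had 1281 and 1382 fragments with vehicle and 2943 and 2902 with gemcitabine. Their log2 fold changes were 1.25, 1.30 and 1.30. The likeness rests on 4 libraries and carries no test.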

How the data were processed

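RNA-seq was analysed for PANC1 cells in 4 libraries (vehicle and gemcitabine, 2 each) and DNaseI-seq in 2. For RNA-seq the authors aligned reads to hg19, and the submitters' processing notes name TopHat2 2.0.8 and Cuffdiff 2.0.2. The deposited table holds estimated counts, the fragments Cuffdiff assigned to each gene, of which 86.8% of values are whole, and the FPKM that the authors obtained from Cuffdiff. The columns of fragments scaled internally and externally were not used (2 per library). MACS was run by the authors on each DNaseI-seq library at a p-value of 1e-05, and the deposited lists give a score per peak, 10 times the negative log10 of its p-value.

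The table's library index cannot be tied to the labels' replicate numbers, so library numbers only tell libraries apart. Estimated counts were rounded and tested over 14854 genes (at least 10 fragments over 4 libraries) with edgeR 4.0.16 in R 4.3.3 (quasi-likelihood, TMM, no covariate, Benjamini-Hochberg). SEs were derived from log2 fold changes and F values. Library totals of 13194533 to 15766237 fragments put 3 fragments at 0.190 to 0.227 CPM, and such limits cover counting error only. Like libraries differed by more than sampling noise (mean chi-square per gene 2.17 for vehicle and 5.16 for gemcitabine). The exact permutation test of 2 against 2 libraries cannot go below p = 0.33 and was not used.

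The genes, lists, rules and tests were chosen with earlier results of these data known. All 10 genes are named; of each list, the called genes are named, and otherwise the 2 that passed with the largest change. Others named are CCND1, CCND3, CCNE1, CCNE2, CDK2, SKP2, CCNA2, CDC25A, MNAT1, SMAD2, SMAD3, SMAD4, ZBTB17 and RB1, chosen after their values were seen. Symbols were matched for 19619 of 20461 genes, and PECAM1 was not matched. Cuffdiff marks 275 genes as failed in a library, none of them among the 10. Promoters came from RefSeq on GRCh38.p14, in which CDKN1C had no entry here. No peak lay near CDKN1A, so the planned search for a motif in peaks there was not run. Some further genes are not reported here. Alternatives were DESeq2 1.42.0, limma 3.58.1 on FPKM, other scaling and filters, a stricter p, each library left out, a block by library index, and other limits for peaks and for the window.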

Additional observations from a re-analysis of the deposited data

How the results depend on the processing

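CDKN1A was called in all 14 alternatives, CDKN2B in 13 (not in limma without a filter, adjusted p = 0.16) and CDKN2D in 6. Directions of the 10 genes held in every alternative except for CDKN2A, which turned to a log2 fold change of 0.013 with library totals. Genes called lower over the whole table, 658, became 417 with library totals, 311 with limma on log2(FPKM + 1), 335 with limma on log2(FPKM + 0.1) and 17 with limma without a filter, where genes called higher, 845, became 28. Of the 10 genes, the 3 that passed lower became 0 in all 3 limma fits and 0 to 4 with 1 library left out (1 without vehicle library 1, 0 without vehicle library 2), and limma without a filter left 1 passed higher and 1 called higher. Left-out libraries gave 3 to 4 passed higher and 2 to 4 called higher, with CDKN1C the fourth called without gemcitabine library 1. A group left with 1 library was assumed to vary like the other. Genes with a DNaseI peak became 0 with vehicle and 1 with gemcitabine at a score of at least 100. Within 5 Mb of CDKN2A, 12 genes were listed at 0, as within 2 Mb, where 15 genes had under 3 fragments in each library. The causes were not tested. A replicate block by the table's index left 4 of the 10 passed higher, 4 lower and 3 called higher, 844 genes called higher and 661 lower; it changed the side of the threshold only for CDKN1B (adjusted p = 0.040). The index is not shown to pair libraries, since deviations from the group means correlated at -0.053 over 10010 genes. With 2 libraries per condition, depth limits CDKN2D most (28 to 74 fragments), and peaks have no replicate.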
